A study of Mus musculus with 6 samples.

Results

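Blood and lymphatic endothelium genes were followed in the pancreas of newborn mice with and without miR-216a. The set holds 40 genes chosen by name, in 6 roles: 6 ligands, 10 receptors, 11 junction or surface genes, 5 transcription factors, 4 genes of fatty acid uptake and 4 lymphatic markers. All 40 were among the 35527 genes of the deposited transcript set, and all 40 had enough reads to be among the 15886 genes tested (10 or more estimated reads in 3 or more libraries). Bulk RNA sequencing covered whole pancreas of C57BL/6 mice at 1 day of age. The 3 miR-216a-/- libraries (KO) and the 3 wild type libraries (WT) each carry their own mouse number in the labels. The sources used here do not say how the allele was made or give sex or litter. Mir216a itself is not a gene of the transcript set, so the deletion was not checked here.

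In KO pancreas 32 of the 40 genes averaged higher than in WT (80%), against 51.1% of all genes tested. The difference was small for most of them, with a median log2 fold change of 0.13 over the 40 genes and 0.01 over all genes tested. No gene of the set passed the edgeR quasi-likelihood test with Benjamini-Hochberg adjustment over all genes, whose call rate at 0.05 was 0% of all genes. The smallest adjusted p was 0.233 in the set and 0.207 over all genes. At an unadjusted p under 0.05, 7 members were higher in KO (17.5%, against 5.62% of all genes) and 0 were lower (6.97% of all genes). By DESeq2, 2 members were called higher (0.844% of all genes called higher) and 0 lower (1.93% of all genes called lower). By limma-voom 0 members were called (0.0126% of all genes called in either direction). The 7 were Flt1, Kdr, Egfl7, Pecam1, Sox17, Fabp4 and Cd36. This count, taken in either direction, was 3 without KO 2, 2 without WT 2, 2 without WT 3 and 4 with upper-quartile scaling. The 2 called by DESeq2 were Fabp4 and Cd36, which carry fatty acids into and through capillary endothelium. All 3 KO libraries lay above all 3 WT libraries for 9 members (22.5%, against 9.05% of all genes) and below them for 0 members (10.3% of all genes). Leaving out WT 1 and KO 2, 22 of the 40 members lay wholly above WT, against 21.7% of all genes. That count depends on the libraries used, and fewer libraries separate more easily, so the share of all genes rose as well. In RNA from whole tissue, a change in the number of endothelial cells and a change in RNA per cell cannot be told apart.

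Endothelial cells line blood and lymphatic vessels and depend on VEGF signals from the surrounding tissue. In the pancreas, islets secrete VEGF-A and are supplied by a dense, fenestrated capillary bed, while the acinar tissue around them has a sparser one. VEGF-A acts through the receptor KDR, FLT1 binds it and limits its supply, and VEGF-C acts through FLT4 on lymphatic endothelium. Angiopoietins acting through TEK set vessel stability, and capillary endothelium takes up fatty acids that lipoprotein lipase releases from circulating lipoproteins.

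The libraries held 20565387 to 23028718 estimated reads in KO and 20889909 to 22922738 in WT, which puts 1 CPM, the library-scaled read count used below, near 20 reads. Some libraries stood apart in ways the labels do not explain. KO 1 had nearly no reads of the Y-linked gene Ddx3y (0.141 CPM), against 71.4 and 102 CPM in KO 2 and KO 3 and 61.8 to 75.0 CPM in WT. Erythroid genes summed to 1708, 4812 and 1798 CPM in KO and 5951, 2708 and 2841 CPM in WT, so KO 2 and WT 1 were the highest of their groups. All 16 cell cycle genes listed were lower in every KO library than in every WT library, against 10.3% of all genes. KO 1 was the nearest to WT. Its list median was -0.55 on the log2 scale relative to the WT mean, against -1.62 in KO 2 and -1.87 in KO 3. Per-library values below run in the order of libraries 1, 2 and 3, which number the samples and pair none of them. CPM are scaled by TMM factors, and ± on a log2 fold change is its standard error.

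The levels of the 40 genes spanned a wide range in TPM, the deposited transcript abundance, which divides reads by transcript length and so allows genes to be compared. Egfl7, a protein that endothelium secretes into its matrix, had the highest mean over the 6 libraries, with 158 ± 11.3 TPM in KO and 133 ± 12.2 TPM in WT (SD, n = 3 each). Fabp4 came next, with 169 ± 66.2 TPM in KO and 83.7 ± 17.2 TPM in WT, so that within KO its mean was above that of Egfl7. Pparg, a nuclear receptor for fatty acid ligands, had the lowest mean over the 6 libraries, with 2.09 ± 0.181 TPM in KO and 1.45 ± 0.341 TPM in WT, though within WT the mean of Angpt2 was 1.42 ± 0.275 TPM. The mean level over the 6 libraries differed 82.3-fold between Egfl7 and Pparg. In all, 7 members averaged over 50 TPM (Egfl7, Fabp4, Vegfa, Plvap, Cd36, Pecam1 and Eng) and 8 averaged under 5 TPM (Apln, Vegfc, Angpt1, Flt4, Esm1, Mmrn1, Angpt2 and Pparg). Of the 39 pairs of neighbours in this order, 38 had ranges over the 6 libraries that overlapped, and the exception was Tek, which lay above Fli1 in every library. The receptors Kdr (27.2 ± 3.27 TPM in KO and 22.0 ± 3.40 TPM in WT) and Flt1 (14.5 ± 1.23 TPM in KO and 10.6 ± 1.88 TPM in WT) stood above Flt4 (3.22 ± 0.729 TPM in KO and 3.35 ± 0.906 TPM in WT). The core blood endothelial markers Pecam1 and Cdh5 were thus well measured in every library, as were the lymphatic markers Prox1, Pdpn and Lyve1.

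**Figure D1:**
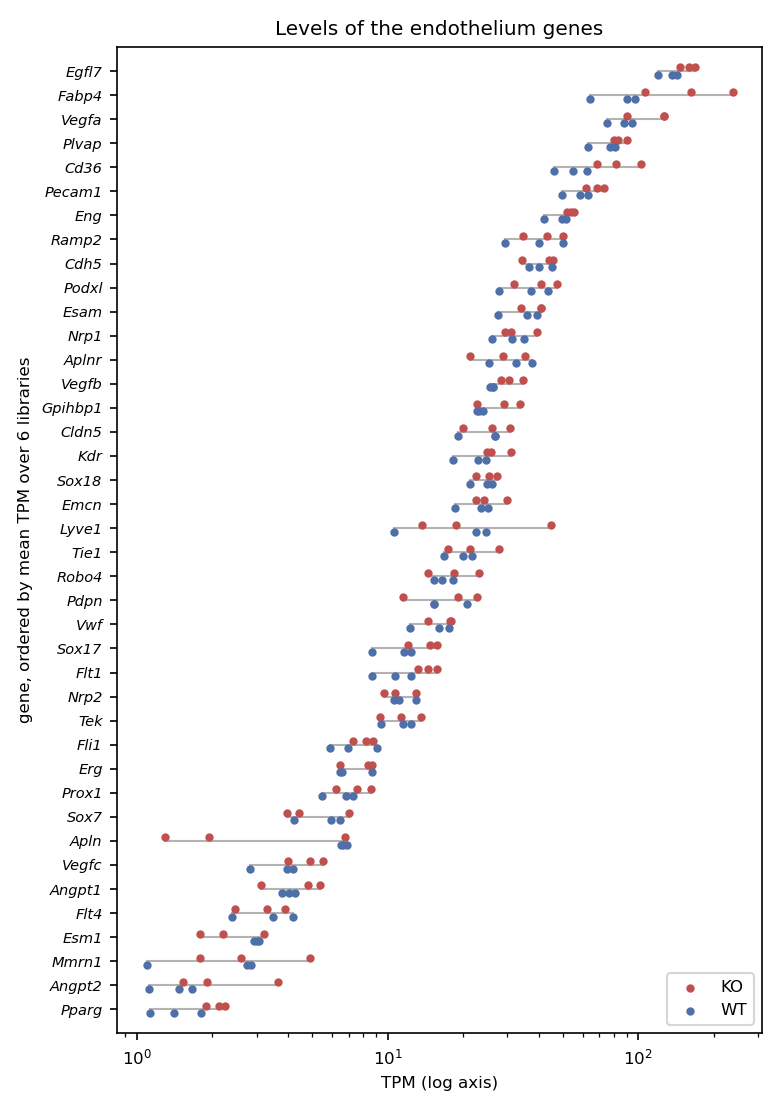
Levels of the 40 endothelium genes in TPM on a log axis, 1 row per gene in the order of the mean over 6 libraries, with 3 KO points (upper, red) and 3 WT points (lower, blue) and a line over the range. Egfl7 and Fabp4 have the highest means over the 6 libraries, Pparg has the lowest, and Lyve1, Apln, Mmrn1 and Angpt2 have wide spreads.

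Among the ligands, 5 of 6 averaged higher in KO, with a median log2 fold change of 0.24, and 1 of 6 lay wholly above WT, against 9.05% of all genes. Without KO 2 the median was 0.15. Vegfa, the main growth factor for blood endothelium, had 125, 140.1 and 94.2 CPM in KO and 108, 91.6 and 95.9 CPM in WT. KO 1 and KO 2 were above all WT libraries and KO 3 was within their range, and the log2 fold change was 0.28 ± 0.15 (edgeR adjusted p = 0.492), or 0.15 without KO 2 and 0.43 without KO 3. Angpt2, an antagonist of TEK that loosens vessels, had 5.04, 4.62 and 7.83 CPM in KO and 4.17, 4.25 and 3.47 CPM in WT. Its groups did not overlap, KO 3 stood highest, and the log2 fold change of 0.56 ± 0.24 missed the test (edgeR adjusted p = 0.398). Without KO 3 it was 0.29 ± 0.20. Vegfb, Vegfc and Angpt1, the TEK agonist, had log2 fold changes of 0.08 to 0.30, and their groups overlapped. Vegfa is made mainly by epithelium and stroma rather than by endothelium, so it is no measure of endothelial content.

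**Figure D2:**
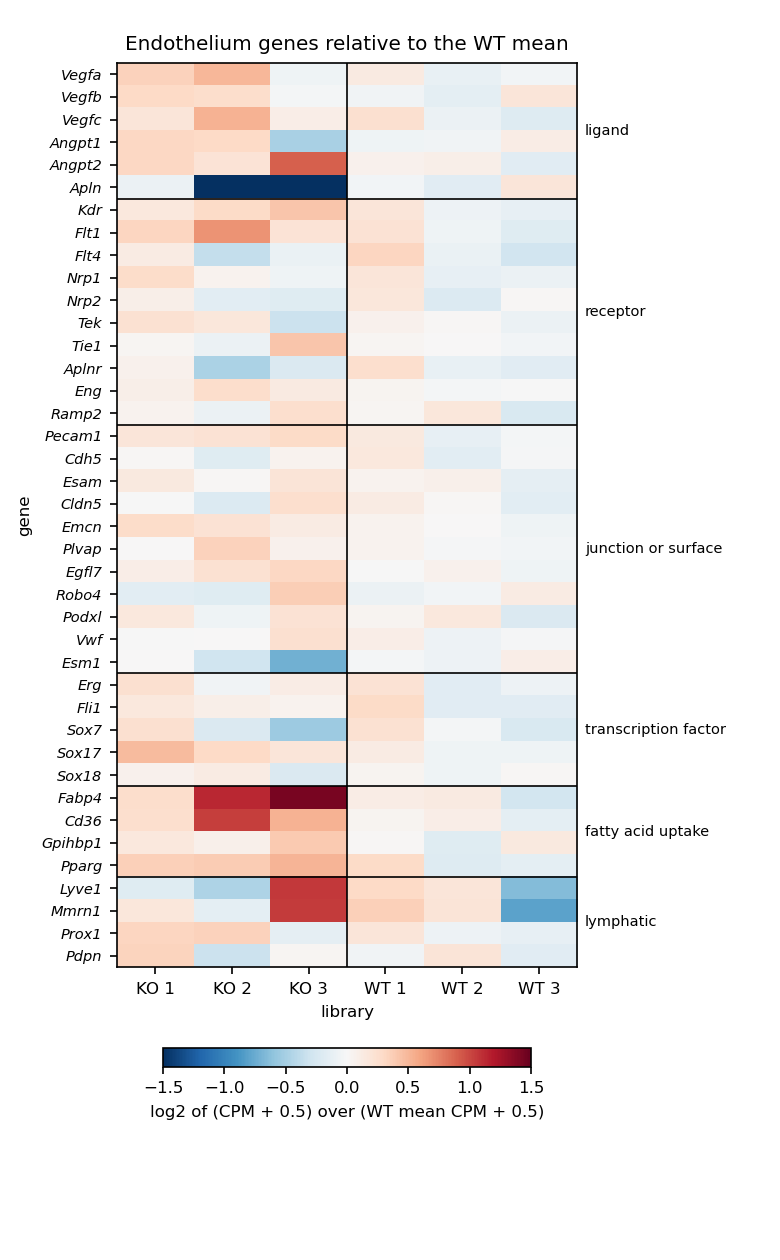
Heat map of the 40 genes by role in the 3 KO libraries (left) and the 3 WT libraries (right), coloured by the log2 ratio of CPM + 0.5 to the WT mean + 0.5, with the colour scale ending at 1.5 in both directions and Apln in KO 2 and KO 3 past its end. Fabp4, Cd36 and Pparg are red in all 3 KO libraries, Apln is dark blue in KO 2 and KO 3 but near the WT mean in KO 1, and Lyve1 and Mmrn1 are highest in KO 3.

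Vegfa messages differ in which exons follow the fifth exon, and those exons encode the stretches that bind heparan sulphate and hold the protein in the matrix. The coding transcripts below cover these choices, each on the minus strand of chromosome 17 (GRCm38). Vegfa-201 skips the 132-base exon and encodes a diffusible form, Vegfa-202 includes it, and Vegfa-207 includes both a 72-base exon and the 132-base one. The sequences below show the 15 bases at the end of the fifth exon, chr17:46024065-46024079, in lower case and the 15 bases that follow it in each transcript in capitals. The following bases lie at chr17:46018865-46018879, chr17:46021108-46021122 and chr17:46022334-46022348, in the order printed.
Vegfa-201: aacaaagccagaaaaATGTGACAAGCCAAG
Vegfa-202: aacaaagccagaaaaTCACTGTGAGCCTTG
Vegfa-207: aacaaagccagaaaaAAAATCAGTTCGAGG
Vegfa-202 was the most abundant, with 65.3, 58.7 and 51.9% of the summed TPM of the 3 transcripts in KO and 56.7, 69.9 and 63.0% in WT. Vegfa-201 took 30.4, 37.8 and 45.7% in KO and 37.7, 28.2 and 35.8% in WT, and its share was 4.06 percentage points higher in KO (two-sided exact permutation p = 0.4, where 3 against 3 libraries cannot go below 0.1). The groups overlapped for both transcripts, and Vegfa-207 stayed between 1.18 and 5.61% in all 6 libraries. Salmon estimates these shares from all reads of the gene, and the annotated 5′ end of Vegfa-201 differs as well. A further 5 of the 13 annotated Vegfa transcripts are retained introns, which took 53.1 to 59.4% of the gene's TPM but 16.0 to 20.3% of its estimated reads, so the TPM of Vegfa overstates its coding message.

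The receptors were close to WT as a group: 7 of 10 averaged higher, the median log2 fold change was 0.09, and 1 of 10 had groups that did not overlap, a share near the 9.05% of all genes. Leaving out single libraries gave medians of 0.03 to 0.12. The receptors of VEGF-A were the furthest from 0. Flt1 had 68.4, 87.5 and 63.2 CPM in KO and 63.7, 52.5 and 48.1 CPM in WT, with a log2 fold change of 0.41 ± 0.15 (edgeR unadjusted p = 0.0264, adjusted p = 0.322). KO 2 was the highest, and only the lowest KO library overlapped the highest WT library. Without KO 2 the log2 fold change was 0.26 ± 0.13. Kdr had 120.4, 133 and 144 CPM in KO and 123, 102 and 99.6 CPM in WT, with a log2 fold change of 0.29 ± 0.11 (edgeR unadjusted p = 0.0323, adjusted p = 0.339). For Kdr the overlap came from WT 1, which lay above KO 1. Flt4, the VEGF-C receptor, had 18.0, 12.8 and 15.4 CPM in KO and 20.7, 15.4 and 13.4 CPM in WT, and its groups overlapped with a log2 fold change of -0.10 ± 0.19 (edgeR adjusted p = 0.881).

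Tek, the angiopoietin receptor, had 48.4, 46.6 and 32.9 CPM in KO and 43.4, 41.9 and 38.9 CPM in WT. The KO libraries lay on both sides of WT, KO 3 being the lowest of all 6, and the log2 fold change was 0.04 ± 0.15 (edgeR adjusted p = 0.943). Eng, a coreceptor for BMP9 on endothelium, had 113, 128 and 117 CPM in KO and 109.7, 104 and 106 CPM in WT. Its groups did not overlap, though the log2 fold change of 0.16 ± 0.08, or 0.11 without KO 2, missed the test (edgeR adjusted p = 0.473). Nrp1 and Nrp2 (coreceptors for VEGF and semaphorins), Tie1 (a partner of TEK) and Ramp2 (part of the adrenomedullin receptor) had log2 fold changes of -0.08 to 0.13, with overlapping groups. Of the Flt1 message, Flt1-203, which has 13 exons and 2064 coding bases and encodes a soluble form that traps VEGF, took 34.2, 41.6 and 34.3% of the summed TPM in KO and 38.2, 31.7 and 32.6% in WT. The rest was Flt1-202, the membrane receptor with 30 exons and 3999 coding bases, and the groups overlapped (two-sided exact permutation p = 0.5). Kdr-201 and Nrp1-201, the coding transcripts measured for these receptors, held 98.1 to 99.8% and 94.4 to 96.1% of their genes' TPM over the 6 libraries.

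**Figure D3:**
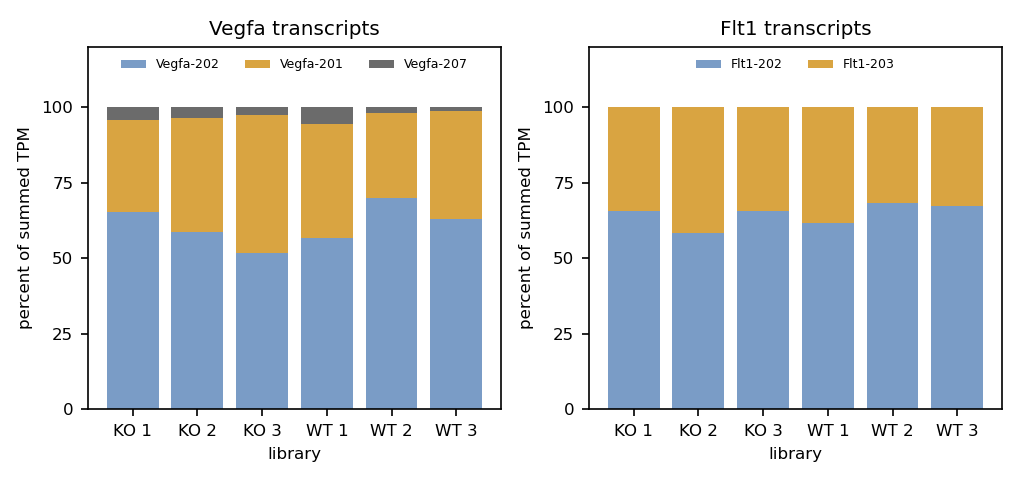
Shares of the summed TPM of the coding transcripts of Vegfa (left) and Flt1 (right) in each KO and WT library, as stacked bars that add to 100 percent. Vegfa-202 and Flt1-202 take the larger share in all 6 libraries, and the KO and WT shares overlap.

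Among the 11 junction and surface genes, 9 averaged higher in KO, the median log2 fold change was 0.11 (0.06 without KO 3), and 3 of 11 lay wholly above WT, against 9.05% of all genes. Pecam1, the adhesion molecule CD31 found on all endothelium, had 165, 169 and 178 CPM in KO and 161, 134 and 143 CPM in WT. Every KO library was above every WT library, by a narrow margin over WT 1, with a log2 fold change of 0.23 ± 0.09 (edgeR unadjusted p = 0.0423, adjusted p = 0.374). Cdh5, the VE-cadherin of endothelial junctions, had 131, 114 and 134 CPM in KO and 144, 116 and 128 CPM in WT. Its groups overlapped fully, and KO 2 was the lowest of the 6 libraries, with a log2 fold change of -0.04 ± 0.11 (edgeR adjusted p = 0.928).

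Egfl7 had 84.9, 93.1 and 98.3 CPM in KO and 79.0, 82.8 and 76.1 CPM in WT, with a log2 fold change of 0.22 ± 0.09 (edgeR unadjusted p = 0.0405, adjusted p = 0.371). Emcn, a sialomucin of veins and capillaries, had 31.9, 30.7 and 28.6 CPM in KO and 27.2, 26.4 and 25.2 CPM in WT, with a log2 fold change of 0.21 ± 0.09 (edgeR adjusted p = 0.405). Neither gene's groups overlapped, and both had a narrow spread within a group. Esam and Cldn5 (tight junctions), Plvap (the diaphragm of fenestrae), Robo4 (a guidance receptor), Podxl (a sialomucin of the lumen) and Vwf (a clotting factor carrier) had log2 fold changes of 0.03 to 0.15, and their groups overlapped. Platelets also carry PECAM1 and VWF. Of 10 platelet and megakaryocyte genes, 4 were tested, 4 averaged higher in KO, and their sums over the list were 29.5 to 52.3 CPM in KO and 26.6 to 43.2 CPM in WT. Gp1ba, Gp6, Gp9 and Clec1b stayed under 1 CPM in every library.

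Of the 5 endothelial transcription factors, 3 averaged higher in KO, with a median log2 fold change of 0.10, and 1 of 5 lay wholly above WT, against 9.05% of all genes. The median was 0.02 without WT 2, 0.03 without KO 1 or WT 3, and 0.24 without WT 1. Sox17, a factor of arterial endothelium, had 17.2, 15.1 and 13.9 CPM in KO and 13.3, 11.7 and 11.6 CPM in WT. All 3 KO libraries were above WT, and the log2 fold change was 0.34 ± 0.13 (edgeR unadjusted p = 0.0342, adjusted p = 0.348). SOX17 is also made outside endothelium, in ducts of the extrahepatic biliary tract. Its relatives Sox7 and Sox18 had log2 fold changes of -0.14 and -0.00, and the ETS family factors Erg and Fli1 had 0.11 and 0.10, with overlapping groups in all 4.

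ETS factors such as ERG bind a GGAA core, and many endothelial promoters hold it. The Flt1 promoter is shown because it holds AGGAAG more than once and Flt1 was furthest from 0 among the receptors. It runs from 250 bases before to 50 bases after the RefSeq start, chr5:147725962-147726261 on the minus strand (GRCm38.p6), with each AGGAAG in capitals.
Flt1 promoter: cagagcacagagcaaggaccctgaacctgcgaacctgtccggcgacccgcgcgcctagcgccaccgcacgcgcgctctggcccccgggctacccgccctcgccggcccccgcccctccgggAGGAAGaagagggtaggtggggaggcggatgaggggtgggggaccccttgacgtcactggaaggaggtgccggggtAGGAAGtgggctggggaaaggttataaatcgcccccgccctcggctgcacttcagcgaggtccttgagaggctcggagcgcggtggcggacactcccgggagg
AGGAAG was searched on both strands of the RefSeq promoter windows, which were available for 23 of the 40 genes. It was found in 9 of the 23 (39.1%), against 38.4% of 27025 genes. Copies numbered 2 or more in 5 of the 23 (21.7%: Egfl7, Eng, Emcn, Tie1 and Flt1), against 9.85% of all genes. A match describes these letters and not a bound site.

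Apln, Aplnr and Esm1, genes of sprouting vessels, averaged lower in KO and are described in full because of values already seen. Apln, the apelin peptide of tip cells, lies at chrX:48025146-48034853 on the minus strand (GRCm38) and had 15.4, 3.35 and 4.40 CPM in KO and 15.9, 14.5 and 18.7 CPM in WT. These values rest on 327, 66 and 103 estimated reads in KO and 335, 362 and 393 in WT. KO 1 was within the WT range, and KO 2 and KO 3 were far below it. The log2 fold change was -1.08 ± 0.50 with all libraries (edgeR adjusted p = 0.434). Without KO 1 it was -2.07 ± 0.20 and passed the threshold (edgeR adjusted p = 0.00481), when 363 genes were called in all.

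Esm1, a proteoglycan secreted by tip cells, had 4.15, 3.25 and 2.31 CPM in KO and 4.03, 3.89 and 4.46 CPM in WT, with a log2 fold change of -0.35 ± 0.25 (edgeR adjusted p = 0.617), or -0.57 without KO 1 and -0.15 without KO 3. Aplnr, the apelin receptor of veins and sprouts, had 102, 69.6 and 83.1 CPM in KO and 115, 89.4 and 86.1 CPM in WT, with a log2 fold change of -0.19 ± 0.16 (edgeR adjusted p = 0.676), or -0.34 without KO 1, -0.07 without KO 2 and -0.05 without WT 1. For both genes, as for Apln, KO 2 and KO 3 lay below every WT library and KO 1 did not. Leaving out KO 1, these 3 of the 40 members lay wholly below WT, a smaller share than the 16.7% of all genes. The 3 restate the values above, since KO 1 was the KO library not below WT. Of the 40, 11 lay wholly above WT, against 15.5% of all genes. Angpt2, another gene of tip cells, was higher in every KO library. KO 1 is the library with nearly no Y-linked reads and with cell cycle genes nearest to WT, and the part of either in the Apln result was not tested.

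**Figure D4:**
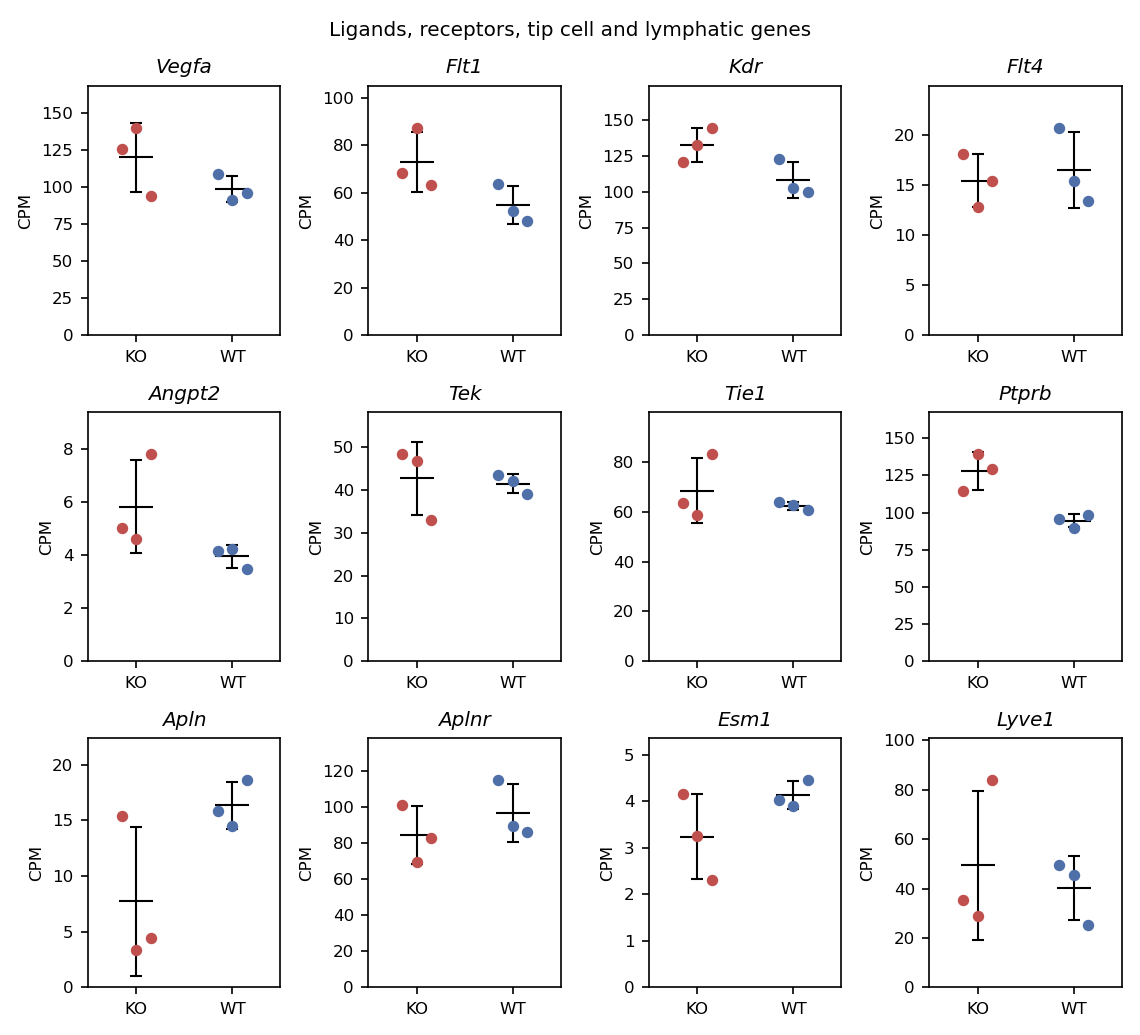
CPM of 12 genes of VEGF, angiopoietin and apelin signalling, sprouting and lymphatic vessels in 3 KO libraries (left, red) and 3 WT libraries (right, blue), with a horizontal line at the mean and whiskers of 1 SD. Apln shows 1 KO library at 15.4 CPM beside 2 at 3.35 and 4.40 CPM, while Ptprb and Angpt2 are higher in every KO library than in any WT library.

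The genes of fatty acid uptake had the largest median of the 6 roles, 0.57 on the log2 scale, with 4 of 4 higher in KO and 3 of 4 wholly above WT, against 9.05% of all genes. Fabp4, an intracellular fatty acid carrier of capillary endothelium and adipocytes, lies at chr3:10204088-10208576 on the minus strand (GRCm38) and had 50.1, 91.9 and 112 CPM in KO and 44.9, 45.6 and 34.3 CPM in WT. KO 2 and KO 3 were well above all WT libraries and KO 1 was just above WT 2, so the spread in KO was wide (84.8 ± 31.7 CPM) and that in WT narrow (41.6 ± 6.32 CPM, SD over 3 libraries each). The log2 fold change was 1.03 ± 0.27, a 2.04-fold difference, which missed the threshold by edgeR (adjusted p = 0.233) and passed it by DESeq2 (adjusted p = 0.00492). Without KO 1, the KO library with the least Fabp4, it was 1.29 ± 0.15 and passed by edgeR as well (adjusted p = 0.00849). That fit called 363 genes in all. Over single libraries left out, the log2 fold change of Fabp4 ran from 0.77 to 1.29.

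Cd36, the membrane receptor that brings fatty acids into endothelium, lies at chr5:17781690-17888801 on the minus strand (GRCm38) and had 116, 201 and 140.3 CPM in KO and 99.9, 104 and 88.2 CPM in WT. Every KO library was above every WT library, KO 2 by the most. The log2 fold change was 0.64 ± 0.19, a 1.56-fold difference, with an adjusted p of 0.255 by edgeR and 0.0344 by DESeq2. Without KO 2 it was 0.39 ± 0.12 (edgeR adjusted p = 0.331). Pparg, which activates Fabp4 and Cd36 in adipocytes and endothelium, had 3.11, 3.15 and 3.51 CPM in KO and 2.94, 1.96 and 2.04 CPM in WT. Its groups did not overlap, though KO 1 and WT 1 nearly met, and the log2 fold change was 0.49 ± 0.24 (edgeR adjusted p = 0.458). Gpihbp1, which holds lipoprotein lipase on the capillary wall, had 14.1, 13.3 and 16.6 CPM in KO and 12.7, 10.98 and 14.0 CPM in WT, with overlapping groups and a log2 fold change of 0.22 ± 0.15 (edgeR adjusted p = 0.582), or 0.12 without KO 3 and 0.14 without WT 2.

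Fabp4, Cd36 and Pparg are also expressed outside endothelium. Of 15 adipocyte genes, 10 stayed under 1 CPM in every library, among them Adipoq, Plin1, Cidec and Retn, and Cfd and Lep had 0 reads. The 5 tested averaged higher in KO, with a median log2 fold change of 0.39. None had groups that did not overlap, against 9.05% of all genes above and 10.3% below WT. The adipocyte list summed to 55.7, 70.6 and 81.6 CPM in KO and 59.0, 53.5 and 60.2 CPM in WT, so KO 2 and KO 3, the libraries with the most Fabp4, were also the highest in this sum. Most of that sum came from genes that other cells share, such as Pnpla2, a triglyceride lipase with 20.9, 24.2 and 38.6 CPM in KO and 20.8, 20.1 and 22.6 CPM in WT. Lipe, the hormone-sensitive lipase, had 9.19, 15.3 and 12.02 CPM in KO and 7.91, 9.02 and 10.9 CPM in WT. The part of adipocytes in the Fabp4 result was not tested beyond these values. Macrophages express Cd36 and Pparg too. Of 16 macrophage genes, 3 averaged higher in KO and 13 lower. Of the 16, 2 lay wholly below WT, a share near the 10.3% of all genes, and 0 wholly above (9.05% of all genes). The list summed to 720.2, 705 and 606 CPM in KO and 722, 719 and 683 CPM in WT. C1qa, a complement gene of macrophages with the smallest p of that list, had 51.1, 46.1 and 50.5 CPM in KO and 51.7, 62.9 and 60.9 CPM in WT (edgeR adjusted p = 0.375).

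Of 26 further genes of lipid transport, 25 were tested and 17 averaged higher in KO, with a median log2 fold change of 0.09. Groups did not overlap for 6 of the 25, 4 above WT (9.05% of all genes) and 2 below (10.3% of all genes). Lpl, lipoprotein lipase, had 254, 253 and 236 CPM in KO and 183, 189 and 162 CPM in WT. The groups were far apart beside their spread, and the log2 fold change was 0.48 ± 0.09 (edgeR adjusted p = 0.207, DESeq2 adjusted p = 0.000887). Fabp5, the fatty acid carrier most like Fabp4 in endothelium, averaged lower, with 46.7, 48.1 and 54.9 CPM in KO and 64.1, 59.4 and 64.8 CPM in WT. All its KO libraries lay below WT, with a log2 fold change of -0.33 ± 0.10 (edgeR adjusted p = 0.252, DESeq2 adjusted p = 0.107). Slc27a1, a fatty acid transporter, and Rxra, the partner receptor of PPARG, also lay wholly above WT and were picked once their values were known, with log2 fold changes of 0.39 ± 0.11 and 0.30 ± 0.12 (edgeR adjusted p = 0.252 and 0.35).

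**Figure D5:**
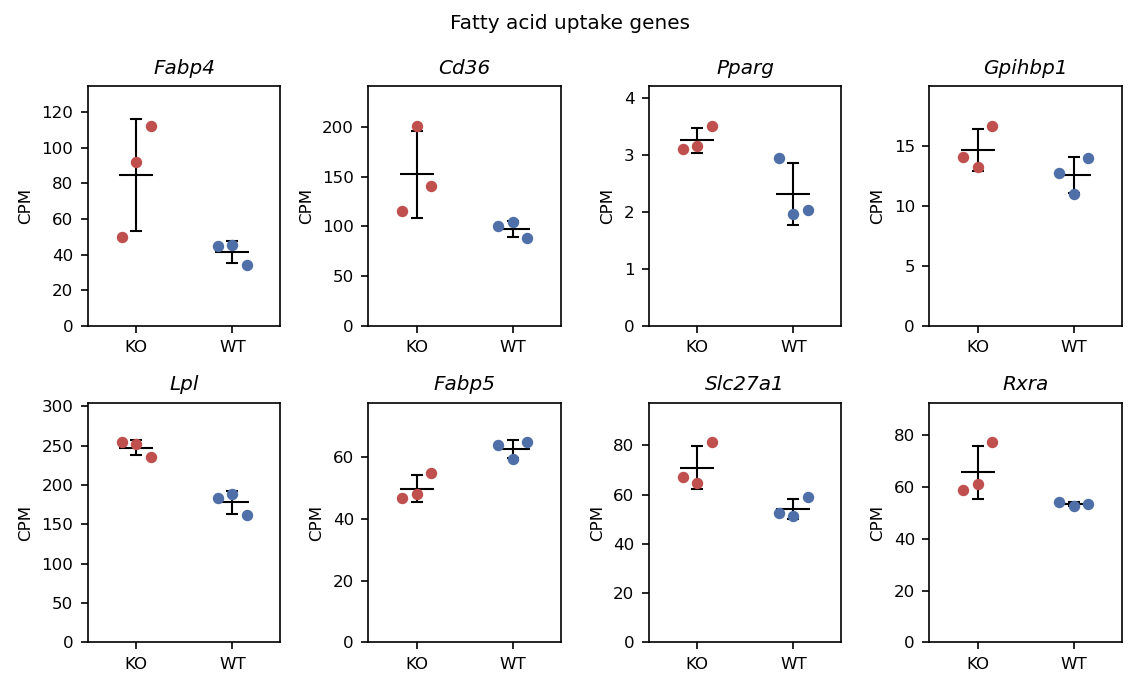
CPM of 8 genes of fatty acid uptake and lipid transport in 3 KO libraries (left, red) and 3 WT libraries (right, blue), with a horizontal line at the mean and whiskers of 1 SD. Fabp4, Cd36, Pparg, Lpl, Slc27a1 and Rxra are higher in every KO library than in any WT library, Gpihbp1 overlaps, and Fabp5 is lower in every KO library.

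The 4 lymphatic genes averaged higher in KO, with a median log2 fold change of 0.25, but all 4 overlapped and the spread was wide. The median was 0.03 without KO 3 and 0.10 without WT 3, and 0.38 and 0.39 without KO 2 and without WT 1. Lyve1, a hyaluronan receptor of lymphatic capillaries, had 35.4, 29.0 and 84.1 CPM in KO and 49.5, 45.6 and 25.4 CPM in WT. Mmrn1, a matrix protein of lymphatic endothelium, had 8.53, 6.76 and 16.0 CPM in KO and 9.81, 8.66 and 4.08 CPM in WT. For both genes KO 3 was the highest of the 6 libraries and WT 3 the lowest, and the log2 fold changes of 0.30 ± 0.41 and 0.48 ± 0.39 missed the test (edgeR adjusted p = 0.809 and 0.672). Without KO 3 the log2 fold change of Lyve1 was -0.32 and that of Mmrn1 was 0.02, and without WT 3 they were 0.06 and 0.18.

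Prox1, the factor that gives lymphatic endothelium its identity, had 49.4, 50.3 and 35.9 CPM in KO and 44.9, 37.5 and 36.3 CPM in WT, with a log2 fold change of 0.19 ± 0.15 (edgeR adjusted p = 0.656), which ran from 0.11 to 0.33 with single libraries left out. Pdpn, a surface mucin of lymphatic endothelium, had 29.9, 18.9 and 24.3 CPM in KO and 22.8, 27.3 and 21.0 CPM in WT, with a log2 fold change of 0.04 ± 0.18 (edgeR adjusted p = 0.958). Neither followed Lyve1 and Mmrn1, since KO 3 was the lowest library of Prox1 and between the others for Pdpn. PROX1 is also a factor of pancreatic epithelial progenitors and islets, PDPN is made by mesothelium and stroma, and LYVE1 by tissue macrophages. Among the macrophage genes, Cd163 was also highest in KO 3, with 33.9, 27.6 and 50.5 CPM in KO and 29.6, 30.1 and 24.3 CPM in WT. The macrophage sum and the median of the macrophage list were both lowest in KO 3. That median was -0.25 in KO 3 on the log2 scale relative to the WT mean, against -0.04 to 0.07 in the other libraries. The 12 mesothelium genes had a median log2 fold change of 0.02 (7 higher, 5 lower and all overlapping) and summed to 539, 308 and 463 CPM in KO and 420.4, 586 and 344 CPM in WT. Of 18 further lymphatic genes, 17 were tested, and 8 averaged higher and 9 lower in KO. The median of this list, relative to the WT mean on the log2 scale, was highest in KO 3 (0.07) and lowest in WT 3 (-0.12). Of the 17, 2 lay wholly above WT, a share near the 9.05% of all genes. The smallest p-values among them were those of Fgl2, with 19.6, 22.6 and 29.0 CPM in KO and 16.5, 15.5 and 13.8 CPM in WT (edgeR adjusted p = 0.223, DESeq2 adjusted p = 0.029), and Thy1, with 34.0, 25.6 and 23.0 CPM in KO and 29.5, 38.1 and 39.4 CPM in WT (edgeR adjusted p = 0.427). Both are also expressed by immune or stromal cells.

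A level of endothelial RNA was read from 10 core genes of the set (Pecam1, Cdh5, Tie1, Tek, Esam, Cldn5, Egfl7, Robo4, Erg and Emcn). Their sum was 655, 631 and 709 CPM in KO and 649.8, 592 and 596 CPM in WT, with a mean of 665 ± 39.6 CPM in KO, against 613 ± 32.3 CPM for WT (SD over 3 libraries each). KO 1 and WT 1 nearly coincided, KO 2 lay below WT 1, and the ratio of the means was 1.09, or 0.12 on the log2 scale (0.07 without KO 3, and 0.19 from summed TPM). Wider sums did not overlap. All 40 members, some of them also expressed by other cells, summed to 2207 to 2315 CPM in KO and 1878 to 2159 CPM in WT. That sum includes Fabp4 and Cd36. By role, the sums overlapped except that of fatty acid uptake, with 183 to 309 CPM in KO and 139 to 163 CPM in WT. The 49 further endothelial genes described below summed to 1692 to 1799 CPM in KO and 1468 to 1672 CPM in WT. Set against the core sum, 4 members lay wholly above WT (3.26% of all genes) and 1 wholly below (15.5% of all genes). Cd36 was 17.7, 31.8 and 19.8% of the core sum in KO and 15.4, 17.6 and 14.8% in WT. Angpt2 was 0.770, 0.733 and 1.10% in KO and 0.642, 0.718 and 0.581% in WT. Pparg and Pecam1, itself a core gene, also lay above, and Apln lay below, with 2.35, 0.531 and 0.622% in KO and 2.44, 2.45 and 3.13% in WT. Fabp4 overlapped on this scale, with 7.65, 14.6 and 15.8% in KO and 6.90, 7.72 and 5.75% in WT, because KO 1 lay just under WT 2. Flt1 (11.1 ± 2.53% in KO and 8.92 ± 0.869% in WT) and Kdr (19.9 ± 1.37% in KO and 17.6 ± 1.13% in WT) overlapped as before.

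Sites for the deleted miRNA were looked for in the 3′ untranslated regions (UTRs) of the set, since loss of a miRNA can raise the messages it binds. miR-216a-5p is shown with its seed, bases 2 to 8, in capitals, from RefSeq at chr11:28757018-28757039 on the plus strand (GRCm38.p6).
miR-216a-5p: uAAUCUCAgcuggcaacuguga
A site was a match of 7 or 8 bases to the seed, TGAGATT or GAGATTA, or TGAGATTA, which holds both, on the strand of the message in the longest annotated 3′ UTR. It was found in 8 of the 40 genes (20%), against 17.0% of 15140 tested genes with an annotated 3′ UTR, and the median UTR was longer in the set (1436 against 1199 bases). The sites of the 8 genes are printed in GRCm38, each 5′ to 3′ on the message with the match in capitals.
Cd36: agtgttctatcTGAGATTctgtgtccttct
Erg: tgttgggagtaTGAGATTgtaggagagaag
Esm1: tcctggcTGAGATTtgccaagagaag
Kdr: gtaccactagaGAGATTAcaaggctttcag
Podxl: gaatttattgaGAGATTAtagttaactatt
Prox1: attcgcgttttTGAGATTcttgtagaagcc
Robo4: ttcttcttgggTGAGATTtcacgc
Tie1: ctctcagactcTGAGATTcaactcatgtgg
The site of Cd36 lies at chr5:17782270-17782299 on the minus strand and that of Kdr at chr5:75933056-75933085 on the minus strand. The site of Prox1 lies at chr1:190120234-190120263 on the minus strand and that of Esm1 at chr13:113216741-113216766 on the plus strand. Those of Erg (chr16:95360091-95360120), Podxl (chr6:31519556-31519585) and Tie1 (chr4:118479088-118479117) are on the minus strand and that of Robo4 (chr9:37415092-37415115) on the plus strand. The Tie1 site is in the transcript Tie1-203. It lies inside the gene, chr4:118471191-118490061, and not near the gene's 3′ end. Of the 8 genes with a site, 7 averaged higher in KO, with a median log2 fold change of 0.12. Of the 32 without a site, 25 averaged higher, with a median of 0.14. Over all tested genes, 1475 of 2571 with a site averaged higher, with a median of 0.04, and 6241 of 12569 without one did, with a median of -0.00. Fabp4, with the largest log2 fold change of the set, had no such match in this UTR. The matches are letters in an annotated UTR, and whether miR-216a binds them was not tested.

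Further endothelial genes also averaged higher in KO. Their list was chosen with earlier results of these data known and read in the same libraries, so it gives no independent support. Of 49 such genes outside the set, 48 were tested, 41 averaged higher in KO, the median log2 fold change was 0.19, and 16 lay wholly above WT (33.3%, against the 9.05% of all genes) and 0 wholly below. Klf4, a factor that endothelium makes under laminar flow and that epithelium and stroma make too, had 49.7, 45.5 and 50.2 CPM in KO and 37.2, 35.2 and 30.7 CPM in WT. Its log2 fold change was 0.50 ± 0.10 (edgeR adjusted p = 0.207, DESeq2 adjusted p = 0.00643). Cyyr1 had 30.3, 43.8 and 30.3 CPM in KO and 22.7, 19.2 and 17.3 CPM in WT, with a log2 fold change of 0.82 ± 0.17 (edgeR adjusted p = 0.207, DESeq2 adjusted p = 0.00289). Neither gene's groups overlapped. Sema3g and Notch4, genes of arterial endothelium picked once their values were known, also lay wholly above WT, with log2 fold changes of 0.37 ± 0.10 and 0.44 ± 0.13 (edgeR adjusted p = 0.241 and 0.256).

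Of 30 further genes of VEGF, angiopoietin and linked signalling, 23 averaged higher in KO, with a median log2 fold change of 0.05, and 4 of 30 lay wholly above WT (13.3%, near the 9.05% of all genes) and 0 below (10.3% of all genes). Ptprb, the phosphatase VE-PTP that dephosphorylates TEK and VE-cadherin, had 115, 139.7 and 129.5 CPM in KO and 95.6, 89.6 and 98.1 CPM in WT. Every KO library was above WT, and the log2 fold change was 0.44 ± 0.10 (edgeR adjusted p = 0.207, DESeq2 adjusted p = 0.011). Sphk1, the kinase that makes sphingosine 1-phosphate, had 27.7, 25.9 and 47.7 CPM in KO and 21.5, 16.6 and 21.6 CPM in WT, with KO 3 far above the rest (log2 fold change 0.76 ± 0.24, edgeR adjusted p = 0.266, DESeq2 adjusted p = 0.0525). Nos3, the endothelial nitric oxide synthase, also lay wholly above WT and was picked once its values were known, with a log2 fold change of 0.33 ± 0.13 (edgeR adjusted p = 0.337).

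Hypoxia raises Vegfa and other targets of HIF. Of 25 hypoxia genes, 12 averaged higher and 13 lower in KO, with a median log2 fold change of -0.02, and 4 of 25 lay wholly above (9.05% of all genes) and 4 wholly below WT (10.3% of all genes). Car9, a carbonic anhydrase, had 4.80, 2.90 and 3.85 CPM in KO and 6.49, 8.22 and 11.3 CPM in WT, with a log2 fold change of -1.17 ± 0.27 (edgeR adjusted p = 0.207, DESeq2 adjusted p = 0.00593). Eno1, a glycolytic enzyme, had 132, 136 and 116 CPM in KO and 161, 161 and 171 CPM in WT, with a log2 fold change of -0.36 ± 0.09 (edgeR adjusted p = 0.223, DESeq2 adjusted p = 0.0308). Both were lower in every KO library than in any WT library. So were Ldha and Pgk1, named once their values were known. Ldha had 93.3, 111 and 111 CPM in KO and 129, 136 and 155 CPM in WT. Its log2 fold change was -0.41 ± 0.11 (edgeR adjusted p = 0.235, DESeq2 adjusted p = 0.0434). Pgk1 had a log2 fold change of -0.32 ± 0.12 (edgeR adjusted p = 0.328, DESeq2 adjusted p = 0.238). The 4 genes wholly above WT, named once their values were known, were Hif3a, a HIF subunit gene, Bnip3, a mitophagy receptor gene, Kdm3a, a histone demethylase gene, and Epas1, which encodes HIF-2 alpha and is abundant in endothelium. Hif3a had 22.4, 34.5 and 87.5 CPM in KO and 21.2, 12.1 and 9.26 CPM in WT, with the largest log2 fold change of these 4 genes, 1.77 ± 0.51 (edgeR adjusted p = 0.252, DESeq2 adjusted p = 0.136). KO 3 stood far above the other libraries. Bnip3 had 22.7, 25.4 and 36.4 CPM in KO and 19.7, 18.0 and 16.7 CPM in WT, with a log2 fold change of 0.64 ± 0.18 (edgeR adjusted p = 0.25, DESeq2 adjusted p = 0.0485). Epas1 had 95.1, 102 and 109.98 CPM in KO and 92.4, 78.3 and 83.5 CPM in WT, with a log2 fold change of 0.27 ± 0.10 (edgeR adjusted p = 0.314). DESeq2 called 3 genes of the list lower in KO (1.93% of all genes) and 1 higher (0.844% of all genes), and edgeR called 0.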

How the data were processed

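Salmon 0.13.1 and DESeq2 1.24.0 are named in the submitters' processing notes, and the mm10 build is given there. Per the file headers, the authors deposited estimated counts, TPM and effective lengths for each transcript of each library. Estimated counts were summed per gene with the GENCODE M21 annotation (GRCm38) and rounded, and TPM were summed. Transcripts without a match held 0.0341 to 0.0458% of the reads. Genes with 10 or more reads in 3 or more libraries were tested with edgeR 4.0.16 (quasi-likelihood, TMM, R 4.3.3), and p-values were adjusted by Benjamini-Hochberg over 15886 genes at a threshold of 0.05. The biological coefficient of variation was 18.4%. DESeq2 1.42.0 and limma-voom 3.58.1 were alternatives, with other scalings and filters and with libraries left out. In a single simulated data set, with the spread of each gene estimated by edgeR, DESeq2 made more false calls than edgeR or limma-voom. It also recovered more of the changed genes. Its calls are given only beside those of edgeR.

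Groups came from the genotype labels. No 2 libraries agreed within sampling noise (chi-square per degree of freedom 22.6 to 86.2). P-values measure the spread between these mice. The members and all gene lists were chosen with earlier results of these data known, so no list gives independent support and none was tested as a set. Values are given in every library for members with an unadjusted p under 0.05 or with groups that did not overlap and for the main vessel, lymphatic and lipid genes, and of every other list for the 2 genes with the smallest p. Others are said to be picked later. Promoter and miRNA sequences are from RefSeq. A series-wide table of the authors was not used here.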

Additional observations from a re-analysis of the deposited data

How the results depend on the processing

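Over 15 alternatives, 564 of 600 member values kept the direction and the side of the threshold. The all-gene count of edgeR calls was 0, and it was 1 with no filter, 440 by DESeq2, 2 by limma-voom and 1 without WT 1 and KO 2. In the set it was 0, and 2 by DESeq2. Leaving out each library in turn gave 0 to 363 genes, and 0 to 2 members, the highest without KO 1. Leaving out WT 1 and KO 2, the libraries rich in erythroid genes, 22 of 40 members lay wholly above WT (21.7% of all genes). Below it lay 0 (21.9% of all genes), and medians were 0.188 for receptors and 0.281 for transcription factors. The transcription factor median ranged from 0.019 to 0.237 over single libraries left out. The direction turned for 16 of 40 genes. Sox18 was 0.043 with a length offset, and without WT 1 and KO 2 the log2 fold changes were -0.072 for Angpt1, 0.211 for Flt4, 0.046 for Nrp2, 0.070 for Aplnr, 0.112 for Cdh5 and 0.028 for Sox7. Over single libraries left out, the ranges were -0.049 to 0.314 for Angpt1, -0.228 to 0.096 for Flt4, -0.0082 to 0.194 for Nrp1, -0.175 to 0.011 for Nrp2, -0.060 to 0.199 for Tek, -0.031 to 0.231 for Tie1, -0.018 to 0.175 for Ramp2, -0.108 to 0.047 for Cdh5, -0.101 to 0.129 for Cldn5, -0.171 to 0.124 for Robo4, -0.0010 to 0.136 for Vwf, -0.383 to 0.033 for Sox7, -0.075 to 0.097 for Sox18, -0.318 to 0.571 for Lyve1 and -0.135 to 0.189 for Pdpn. The cause was not tested. Other scalings turned no member's direction. No paired analysis was possible because the replicate numbers follow sample order only. Differences near those of Cdh5 or Tek are within the spread of 3 mice a group, and Pparg, Angpt2 and Esm1 rest on 43 to 183 reads a library.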

Other observations

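Mural cells wrap the endothelium, and their genes stood close to WT. Of 16 such genes, 10 averaged higher and 6 lower in KO, and the median log2 fold change was 0.04. Of the 16, 1 lay wholly above WT, against 9.05% of all genes. Pdgfrb, the receptor by which endothelium recruits pericytes, had 73.0, 73.0 and 79.0 CPM in KO and 68.7, 59.8 and 62.9 CPM in WT, with a log2 fold change of 0.23 ± 0.09 (edgeR adjusted p = 0.337). Notch3, a receptor of vascular smooth muscle, had 83.4, 70.9 and 88.0 CPM in KO and 75.7, 66.5 and 71.0 CPM in WT, with overlapping groups (edgeR adjusted p = 0.523).

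Of 12 endocrine genes, 3 averaged higher and 9 lower in KO, and 5 of 12 lay wholly below WT (10.3% of all genes). Mafa, a factor of mature beta cells, had 11.8, 12.04 and 8.81 CPM in KO and 16.1, 20.8 and 17.9 CPM in WT (edgeR adjusted p = 0.207, DESeq2 adjusted p = 0.00723). Ins2 had 2211, 2116 and 2290.5 CPM in KO and 2809.6, 3371 and 2901 CPM in WT (edgeR adjusted p = 0.236, DESeq2 adjusted p = 0.00205). The endocrine sum was lower in KO (6827 ± 311 CPM, against 8247 ± 1062 CPM for WT, SD over 3 libraries each). Ins2 was a large part of it, and so was Ins1, with 1700 ± 169 CPM in KO and 2245 ± 253 CPM in WT. Ins1 was picked once its values were known. The sum thus follows hormone message and is no count of endocrine cells. Of 10 acinar genes, 5 averaged higher and 5 lower in KO. Of the 10, 1 lay wholly above WT (9.05% of all genes) and 1 wholly below (10.3% of all genes). The smallest p-values were those of Cel (log2 fold change -0.37 ± 0.18, edgeR adjusted p = 0.449) and Amy2a5 (0.48 ± 0.26, edgeR adjusted p = 0.495).

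In the cell cycle list, DESeq2 called 11 of 16 genes lower in KO, against 1.93% of all genes. The edgeR test called 0, with 16 of 16 lower at an unadjusted p under 0.05, against 6.97% of all genes. Mcm5 had 44.6, 37.8 and 20.9 CPM in KO and 71.6, 72.7 and 80.1 CPM in WT, and Pcna had 79.1, 64.4 and 41.9 CPM in KO and 109, 118 and 124 CPM in WT (edgeR adjusted p = 0.207 for both). The 9 erythroid genes tested overlapped, with 4 higher and 5 lower in KO, and Hba-a2 had 663, 1726 and 747 CPM in KO and 2442, 1059 and 1156 CPM in WT. WT 1 held 219 CPM of the liver gene Alb, against 6.84 to 15.1 CPM in KO and 6.41 and 9.78 CPM in the other WT libraries. Hbb-bt, a second globin gene, had 142, 422 and 139.7 CPM in KO and 510.3, 248 and 242 CPM in WT. Among the platelet genes, Pf4 had 23.6, 35.1 and 42.7 CPM in KO and 27.3, 33.6 and 21.2 CPM in WT. Ppbp had 0.330, 4.98 and 0.299 CPM in KO and 0.995, 1.88 and 0.522 CPM in WT. KO 2, the library with the most Cd36, was the highest for Ppbp but not for Pf4. The part of platelets in the Cd36 result was not tested. Among the mesothelium genes, Nkain4 (14.7, 12.6 and 11.8 CPM in KO and 11.2, 13.5 and 8.93 CPM in WT) and Rspo1 (22.5, 9.65 and 19.8 CPM in KO and 13.4, 19.0 and 11.5 CPM in WT) overlapped. Of the Y-linked genes, Eif2s3y and Kdm5d had 0 and 2.83 CPM in KO 1 and 27.1 CPM or more in the other 5 libraries.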
